A study of Mus musculus with 12 samples.

Results

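The comparison set a pair of Set knockdown lines, KD1 and KD2, side by side after both had been taken out of the stem cell state with retinoic acid. It used the 4 arrays of the groups RA KD1 and RA KD2 out of the 12 arrays of the series, and every one of the 19920 genes that the array annotation names. All cells were mouse R1 embryonic stem cells, an established pluripotent line. KD1 and KD2 each stand for 1 line with a knockdown of Set, and the control line carried a scrambled sequence. RA cells were grown for 4 days with 1 µM retinoic acid in 10% serum without leukemia inhibitory factor, and ESC cells in 15% serum with 1000 U/ml of that factor. Each of the 6 groups (ESC or RA, each as scrambled, KD1 or KD2) had 2 arrays made from 300 ng of total RNA. The titles call the arrays of a group biological replicates but do not say whether they were separate cultures. The p-values therefore reflect the spread between arrays of a group within a line. That spread was estimated over all fitted groups, the ESC and scrambled groups included. Where a KD2 group kept a single array, it added nothing to the estimate. A difference between KD1 and KD2 is a difference between single lines.

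SET is a histone chaperone and an inhibitor of protein phosphatase PP2A, and it also blocks histone acetylation. Retinoic acid binds nuclear receptors, turns on Hox genes and its own degrading enzymes, and drives embryonic stem cells out of pluripotency, towards neural cells or, in other culture settings, towards extraembryonic endoderm. Extraembryonic endoderm is the lineage of the yolk sac: its GATA and SOX factors oppose Nanog, its visceral cells take up nutrients through cubilin and megalin, and its parietal cells lay down a thick basement membrane of laminin and type IV collagen.

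The array labelled RA KD2 replicate 2 stood apart from the other RA arrays. On a line from the mean scrambled ESC array (0) to the mean scrambled RA array (1), over all genes, the RA KD1 arrays lay at 0.865 and 0.843 and RA KD2 replicate 1 at 0.858, but RA KD2 replicate 2 lay at 0.125. The array labelled ESC KD2 replicate 2 lay at 0.844, and ESC KD2 replicate 1 at 0.133. Rarb, a retinoic acid receptor gene that retinoic acid itself induces, shows the same split: it read 11.11 and 11.17 log2 units in RA KD1 and 11.17 in RA KD2 replicate 1, but only 6.27 in RA KD2 replicate 2 as labelled (named after its values were seen). Over all genes, the difference between replicates 1 and 2 of ESC KD2 correlated with that of RA KD2 at -0.864. Both arrays thus went against their labelled state. Whether their labels had been exchanged was not tested, and every as-labelled value carries that doubt. Both arrays keep their labels here. The counts over all genes and over the lists described at length are given in 2 forms: as labelled, with all 4 arrays, and with KD2 replicate 1 alone, which leaves out replicate 2 of KD2 in both states and assumes that the remaining KD2 array varies like the other groups. Unless a sentence says "as labelled", the value is from KD2 replicate 1 alone.

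**Figure D1:**
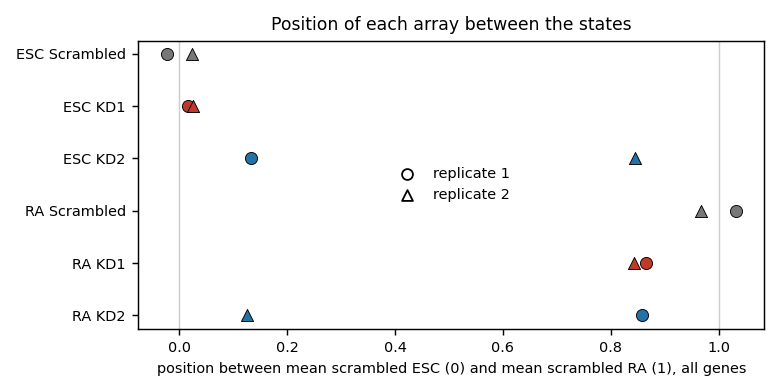
Position of each of the 12 arrays between the mean scrambled ESC array (0) and the mean scrambled RA array (1) over all genes, one row per group; circles are replicate 1 and triangles replicate 2. The RA KD1 arrays and RA KD2 replicate 1 lie between 0.843 and 0.865, and RA KD2 replicate 2 lies at 0.125.

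Set RNA itself read lower in KD1 than in KD2 after retinoic acid, but the difference did not pass the threshold. The brightest probe set of Set (10470893, shared with BC085271) read 11.28 and 11.16 log2 units in RA KD1, 11.70 and 11.99 in RA KD2 replicates 1 and 2, and 12.27 and 12.29 in RA scrambled cells. Both KD1 arrays thus lay below both KD2 arrays, and those below both scrambled arrays. KD1 minus KD2 was -0.47 (SE 0.12; limma, adjusted p = 0.0729) with KD2 replicate 1 alone and -0.62 (SE 0.14; adjusted p = 0.0876) as labelled. For the other bright probe set (10587486) these differences were -0.31 (adjusted p = 0.274) and -0.55 (adjusted p = 0.212), and the dim probe sets of Set gave -0.12 and -0.01 with KD2 replicate 1 alone, at adjusted p-values of 0.87 and 0.997. Against scrambled cells, probe set 10470893 was lower by -1.06 in RA KD1 (adjusted p = 0.00026) and by -0.59 in RA KD2 replicate 1 (adjusted p = 0.0681).

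A gene was called where limma's p-value, adjusted by Benjamini-Hochberg over all 19920 genes, was below 0.05. With KD2 replicate 1 alone, 741 genes (3.72%) were called: 479 were higher in KD1 (2.4%) and 262 higher in KD2 (1.32%). The 479 had a median difference of 1.03 log2 units, and 41 of them differed by at least 2; the 262 had a median size of 0.92, and 5 differed by at least 2. As labelled, 268 genes (1.35%) were called, 236 higher in KD1 (1.18%) and 32 higher in KD2 (0.161%). The median difference over all genes was -0.05 in both. Of the genes higher in KD1, 232 were called both ways of grouping, which is 98.3% of the as-labelled list and 48.4% of the list with KD2 replicate 1 alone. Of those higher in KD2, 28 were shared, 87.5% and 10.7% of the 2 lists, and no gene was called in opposite directions. The 2 analyses share 3 of the 4 RA arrays, so this overlap is no independent check.

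The counts depended on single arrays. With KD2 replicate 1 alone, they fell to 322 without RA KD1 replicate 1 and to 193 without RA KD1 replicate 2. As labelled, 40 genes were called without RA KD1 replicate 1, 30 without RA KD1 replicate 2, 95 without RA KD2 replicate 2, and 1253 without RA KD2 replicate 1, where the array that lay near the stem cells stood alone for KD2. With the replicate number as a block within each state, 1921 genes were called with KD2 replicate 1 alone, 1034 higher in KD1 and 887 higher in KD2, and 305 as labelled.

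The largest differences were genes higher in KD1. Ptk6, a cytoplasmic tyrosine kinase of epithelial cells, read 10.09 and 10.29 log2 units in RA KD1, 6.82 and 6.35 in RA KD2 replicates 1 and 2, and 6.20 and 6.13 in scrambled RA cells. Among these RA arrays KD1 stood alone, and it exceeded KD2 replicate 1 by 3.37 (SE 0.15; adjusted p = 5.5e-05), a 10.4-fold difference. Klb, the coreceptor for endocrine fibroblast growth factors, read 11.10 and 11.05 in KD1 against 8.31 and 6.85 in KD2, with scrambled cells at 6.99 and 7.02. Here KD2 replicate 1 lay between KD1 and scrambled cells; KD1 minus KD2 was 2.76 (SE 0.14; adjusted p = 9.54e-05). Tbc1d4, a Rab GTPase-activating protein of glucose transporter traffic, read 9.99 and 10.18 in KD1 and 7.13 and 6.69 in KD2, a difference of 2.95. Isx, an intestinal homeobox factor, was 3.03 log2 units higher in KD1, with 9.13 and 9.83 against 6.45 and 6.41. In each of these 4 genes both KD1 arrays lay above both KD2 arrays, and each was also called as labelled. Genes whose arrays overlapped in the comparison used were not named, so the selection fixed part of this separation.

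The rest of the leading KD1 side mixed secreted proteins, proteases and transporters. Pga5 (a pepsinogen), Prss35 (a serine protease-like protein), Cemip (a hyaluronan-binding protein that promotes its breakdown), Zim1 (an imprinted zinc finger gene), Nostrin (which traffics endothelial nitric oxide synthase), Aqp8 (a water channel) and Spock1 (a matrix proteoglycan) differed by 2.64 to 3.21, and all 7 were also called as labelled. Slc6a15, a neutral amino acid transporter, read 9.69 and 9.94 in KD1 against 6.67 and 8.36 in KD2 replicates 1 and 2. It differed by 3.14 with KD2 replicate 1 alone (adjusted p = 0.00138), and by 2.30 as labelled, which was not called (adjusted p = 0.176). Zim1 differed from the others in that its KD1 level matched the scrambled cells: it read 10.56 and 10.75 in KD1 and 10.36 and 10.45 in scrambled RA cells, against 7.90 and 6.62 in KD2.

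**Figure D2:**
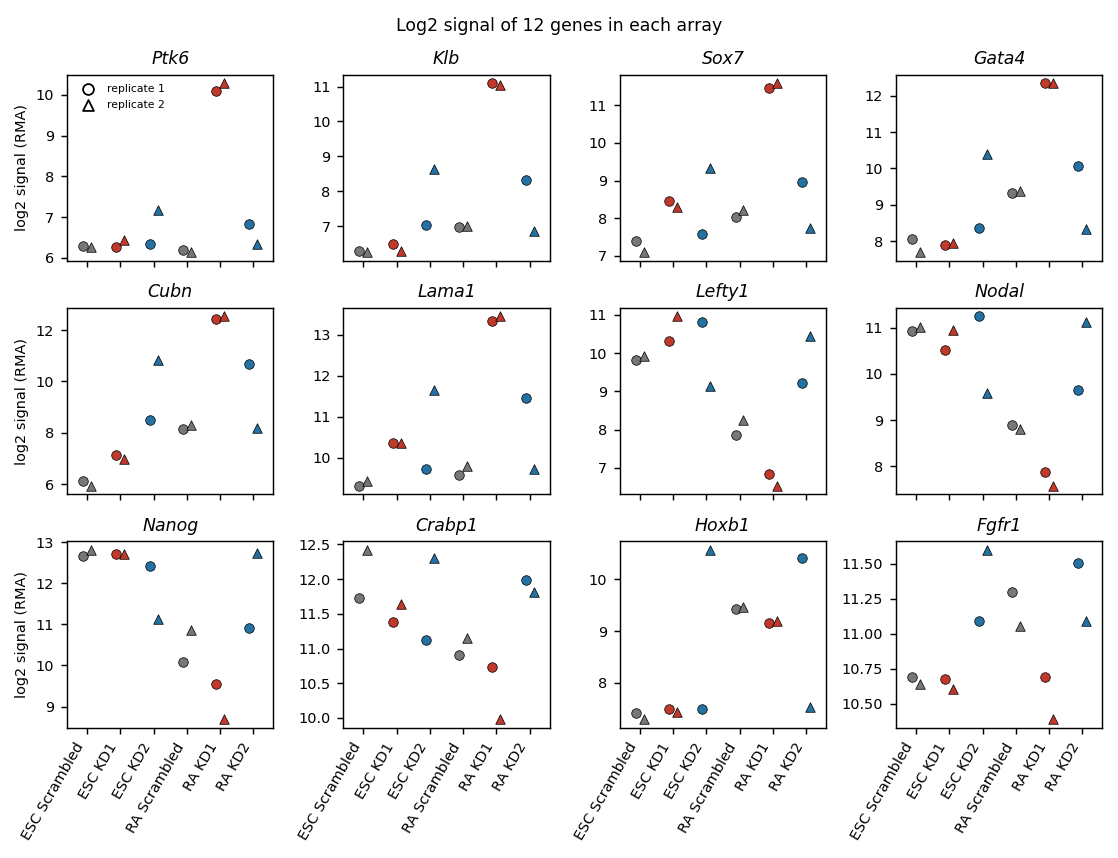
Log2 signal of 12 genes in each of the 12 arrays, by group; circles are replicate 1, triangles replicate 2, grey scrambled, red KD1 and blue KD2. Fgfr1 and Lama1 were chosen for the plot after their values were seen. Ptk6, Klb, Sox7, Gata4, Cubn and Lama1 are highest in the RA KD1 arrays, and Lefty1, Nodal and Nanog are lowest there.

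Of 18 transcription factors of extraembryonic endoderm measured, 8 were called higher in KD1 and 0 higher in KD2, with a median difference of 0.67 log2 units, against 2.4% and 1.32% called and a median of -0.05 over all genes. Without either RA KD1 array in turn the count was 5, and as labelled it was 3. Gata4, a zinc-finger factor at the head of this programme, read 12.34 and 12.35 in RA KD1, 10.08 and 8.34 in RA KD2 replicates 1 and 2, and 9.33 and 9.37 in scrambled RA cells. KD2 replicate 1 lay above scrambled cells and replicate 2 below them, so the difference was 2.27 (SE 0.17; adjusted p = 0.000393) with replicate 1 alone and 3.14 as labelled, where it was not called (adjusted p = 0.0649). Sox7, a SOX factor of parietal endoderm, read 11.47 and 11.59 in KD1 and 8.95 and 7.74 in KD2, a difference of 2.58 (SE 0.18; adjusted p = 0.000318). Sox17, a SOX factor of primitive and definitive endoderm, read 9.57 and 9.65 in KD1 and 7.77 and 7.27 in KD2, and Foxq1, a forkhead factor, 11.63 in both KD1 arrays and 9.55 and 8.33 in KD2. Sox7, Sox17 and Foxq1 were called as labelled as well. In bulk RNA, a larger share of endoderm-like cells and more of these RNAs per cell cannot be told apart.

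The remaining called members were Gata6, Foxa2, Hnf4a and Tcf7l2, named to complete the list. Gata6, which specifies primitive endoderm, was high in every RA array but one: the KD1 arrays read 12.53 and 12.55, KD2 replicate 1 read 11.69, scrambled cells averaged 11.95 (SD 0.07, n = 2) and KD2 replicate 2 read 9.0. Its difference was correspondingly small with KD2 replicate 1 alone, 0.85 (adjusted p = 0.00992), and larger but not called as labelled, 2.20 (adjusted p = 0.339). Foxa2, a forkhead factor of endoderm, and Hnf4a, a nuclear receptor of visceral endoderm and liver, differed by 1.39 and 1.48. As labelled, Foxa2, Hnf4a and Tcf7l2 were not called (adjusted p = 0.166, 0.0859 and 0.112). The factors did not all move together: of the 18 measured, 12 lay above 0 with KD2 replicate 1 alone. Prdm1 and Nr5a2 differed by -1.18 and -0.87 (-2.2 and -2.35 as labelled), and Foxa1 by 0.08.

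Cubn and Lrp2, uptake receptors of visceral endoderm, were higher in KD1, and the secreted carriers Apoe and Trf higher in KD2. Amn and Tfrc, of the same list, differed by only 0.33 and -0.34. Of 29 measured genes of uptake and secreted carriers, 7 were called higher in KD1 and 2 higher in KD2, with a median of 0.06; as labelled these were 4 and 1, with a median of 0.10. Cubn, the endocytic receptor cubilin, read 12.43 and 12.53 in KD1, 10.66 and 8.17 in KD2 and 8.15 and 8.30 in scrambled RA cells. KD2 replicate 1 was thus itself well above scrambled cells (by 2.43), and KD1 exceeded it by a further 1.82 (SE 0.16; adjusted p = 0.000732). Lrp2, its partner megalin, and Dab2, their adaptor, differed by 1.36 and 1.18. Ihh, the hedgehog ligand that visceral endoderm secretes, read 9.84 and 9.76 in KD1 and 8.08 and 7.90 in KD2, close to scrambled cells at 7.71 and 7.92. Slc39a8, a metal ion importer, differed by 1.59 and Mttp, which loads lipid onto lipoproteins, by 1.01. The pair higher in KD2 was Apoe, a lipid carrier (-0.82), and Trf, the iron carrier transferrin (-0.87). Afp, the yolk sac carrier alpha-fetoprotein, lay below the median of all values (7.22) in all 4 arrays, at 6.27, 6.34, 6.66 and 5.90. As labelled, Lrp2, Ihh, Slc39a8 and Trf kept their call, and Cubn (adjusted p = 0.151), Dab2 (0.214), Mttp (0.0749) and Apoe (0.214) did not.

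Promoters are shown for Cubn and Slc39a8, called uptake genes of which one has neither motif in its window and the other has both. The sequences are from RefSeq (GRCm38.p6), 250 bases before to 50 after a start, with AGATAA or AGGTCA, on either strand, in capitals. AGATAA is a GATA motif and AGGTCA the core motif of nuclear receptors such as the retinoic acid receptors.
Cubn, chr2:13491827-13492126, minus strand: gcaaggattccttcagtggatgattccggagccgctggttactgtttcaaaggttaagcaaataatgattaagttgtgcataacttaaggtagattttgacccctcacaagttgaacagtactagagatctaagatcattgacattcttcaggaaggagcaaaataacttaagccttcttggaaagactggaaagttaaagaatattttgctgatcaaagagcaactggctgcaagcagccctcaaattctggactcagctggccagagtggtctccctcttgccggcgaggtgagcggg
Slc39a8, chr3:135825407-135825706, plus strand: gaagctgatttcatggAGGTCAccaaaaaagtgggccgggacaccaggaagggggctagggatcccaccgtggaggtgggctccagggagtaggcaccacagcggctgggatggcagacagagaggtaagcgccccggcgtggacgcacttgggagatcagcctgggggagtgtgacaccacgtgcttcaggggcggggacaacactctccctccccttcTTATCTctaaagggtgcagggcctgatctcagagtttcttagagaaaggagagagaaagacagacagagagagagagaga
The Cubn window holds neither motif, and this Slc39a8 window, 1 of 2 in the table, holds both. Over 15614 genes with a promoter entry, 10.8% held AGATAA in at least one window. The share was 9.68% of 372 called genes higher in KD1 and 8.06% of 186 higher in KD2. AGGTCA was in 16.3% of all, 17.2% of those higher in KD1 and 16.7% of those higher in KD2. Neither share stood far from that of all genes. Gata4, Sox7, Sox17 and Foxq1 were not matched to a promoter.

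Parietal endoderm and basement membrane genes had the largest share of called members among the 32 lists. Of 28 measured, 18 were called higher in KD1 and 0 higher in KD2, with a median of 0.90 (1.80 as labelled, where 5 were called). The count was 10 without RA KD1 replicate 1 and 9 without RA KD1 replicate 2, with medians of 0.94 and 0.89. Lama1, the laminin alpha chain of early embryonic basement membranes, read 13.34 and 13.44 in KD1, 11.46 and 9.72 in KD2, and 9.58 and 9.79 in scrambled RA cells. Its partners Lamb1 and Lamc1 differed by 1.58 and 1.39, and Col4a1 and Col4a2, the chains of type IV collagen, by 1.98 and 1.94 (these 5 were picked from the called members after their values were seen). These 5 chains were thus 2.62 to 3.95-fold higher in KD1 than in KD2 replicate 1. The other laminin chains of the list, Lama5 and Lamb2, differed by only -0.12 and 0.19. As labelled, limma called only Lamc1 of the 5 picked chains (adjusted p = 0.0141). Lama1, Lamb1, Col4a1 and Col4a2 missed the threshold (adjusted p = 0.0859, 0.076, 0.0501 and 0.0523).

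Other called members of the list were enzymes, receptors and secreted factors. P4ha1 and P4ha2, the prolyl hydroxylase subunits that let collagen fold, differed by 1.70 and 1.66. Thbd, the thrombin receptor thrombomodulin, read 9.93 and 10.15 in KD1 and 7.59 and 6.79 in KD2, a difference of 2.45. Pth1r, the receptor through which parathyroid hormone-related peptide acts on parietal endoderm, read 11.84 and 11.97 in KD1 and 9.85 and 7.87 in KD2, a difference of 2.05. Fst, the activin antagonist follistatin, was 2.31 higher in KD1. Sparc, a secreted matrix glycoprotein that was already above 12 in every array, differed by only 0.39 (adjusted p = 0.0479). Of these 6, Thbd was called as labelled, and Pth1r (adjusted p = 0.0784), Fst (0.0528), P4ha1 (0.145), P4ha2 (0.112) and Sparc (0.275) were not. Among the members that did not pass in either form were the plasminogen activators Plau, at 0.00 (adjusted p = 0.998), and Plat, at 0.66 (adjusted p = 0.0596), and the membrane protease Tmprss2, at 0.30 (adjusted p = 0.724). The 12 extraembryonic endoderm markers, of which 10 were themselves called higher in KD1, averaged 10.92 and 10.98 in the KD1 arrays and 9.47 and 8.01 in KD2, against 8.80 and 8.98 in scrambled RA cells.

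**Figure D3:**
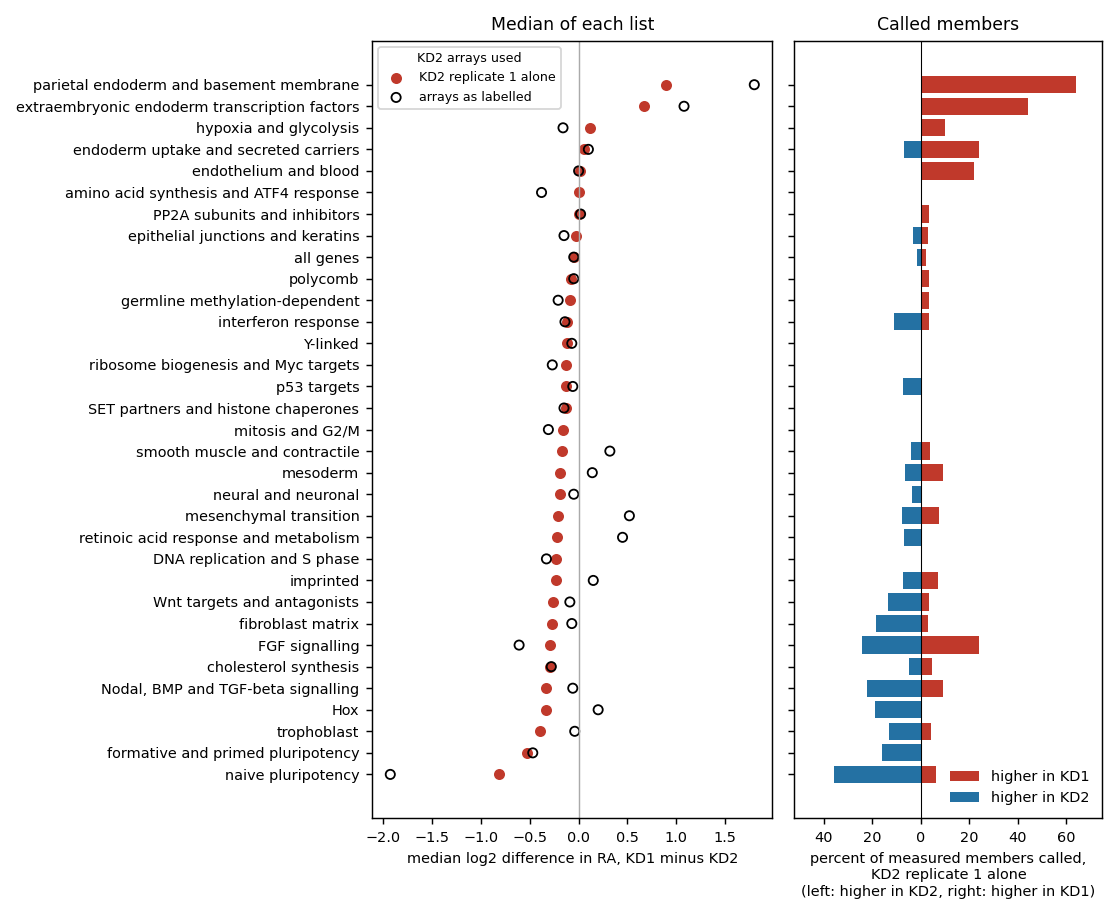
Left, median log2 difference (KD1 minus KD2, RA) of each gene list and of all genes, filled for KD2 replicate 1 alone and open for the arrays as labelled. Right, percent of measured members called with KD2 replicate 1 alone, to the right where higher in KD1 and to the left where higher in KD2; the parietal endoderm list has 18 of 28 called on the right, and naive pluripotency 11 of 31 on the left.

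Among 31 naive pluripotency genes, 11 were called higher in KD2 and 2 higher in KD1, with a median of -0.82. Nanog, the homeobox factor at the centre of this state, read 9.56 and 8.69 in RA KD1, 10.90 and 12.73 in RA KD2, and 10.09 and 10.87 in scrambled RA cells. Its difference was -1.77 (SE 0.35; adjusted p = 0.0286); the KD2 array near the stem cells was the higher of the pair, and as labelled the gene gave -2.69 and was not called (adjusted p = 0.0859). Nr0b1, a nuclear receptor partner of Oct4, differed by -1.80 and Stmn2, a microtubule-destabilising protein, by -1.96. Esrrb, a nuclear receptor, and Fgf4, the growth factor of the inner cell mass, differed by -1.61 and -1.11. Nr0b1 was near the threshold (adjusted p = 0.0487). Without RA KD1 replicate 2, whose Nanog and Nr0b1 values were the lowest of the 4 arrays, only 2 of the 31 genes were called higher in KD2, and Nanog, Nr0b1 and Tdgf1 were not among the called genes; without RA KD1 replicate 1 the count was 6.

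Members of the list did not move as one. Klf4 and Klf5, Krüppel-like factors, were higher in KD1, by 1.21 (adjusted p = 0.0052) and 1.13 (adjusted p = 0.0253). Klf4 read 10.45 and 10.56 in KD1 against 9.30 and 10.93 in KD2 replicates 1 and 2. Pou5f1 (Oct4), Sox2 and Zfp42 did not pass the test, at -0.61, -1.14 and -0.39 (adjusted p = 0.362, 0.0916 and 0.711). As labelled, the list's median was -1.93 and Lefty1 alone was called, while 17 members had an unadjusted p below 0.05, all lower in KD1. The 6 stem cell markers averaged 8.86 and 8.55 in KD1 against 9.12 and 11.85 in KD2 replicates 1 and 2, so KD2 replicate 1 lay close to KD1 on these markers and the array labelled replicate 2 did not.

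Several of the largest differences toward KD2 were genes of Nodal signalling, which maintains primed pluripotency and patterns the embryo. Nodal, the ligand, read 7.88 and 7.58 in RA KD1, 9.65 and 11.13 in RA KD2, and 8.89 and 8.80 in scrambled RA cells. KD1 lay below scrambled cells and KD2 above them, a difference of -1.92 (SE 0.20; adjusted p = 0.00146). Tdgf1, the Nodal coreceptor Cripto, differed by -2.15 (adjusted p = 0.0351), and Foxh1, the DNA-binding partner of the Smads, by -1.70 (adjusted p = 0.00982). The feedback antagonists followed the ligand. Lefty1 read 6.85 and 6.53 in KD1, 9.22 and 10.45 in KD2 and 7.86 and 8.25 in scrambled cells, a difference of -2.53 (adjusted p = 0.00172), and Lefty2 differed by -1.97. Lefty1 was the only one of these 5 called as labelled (-3.14, adjusted p = 0.0307). Both KD1 arrays lay below both KD2 arrays in each of the 5. Without RA KD1 replicate 2, Lefty1 and Nodal were still called, and Tdgf1, Foxh1 and Lefty2 were not.

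Over the whole list of Nodal, BMP and TGF-beta signalling, 7 of 32 genes were called higher in KD2 and 3 higher in KD1; without RA KD1 replicate 2 these were 2 and 3, and as labelled 1 each way, Lefty1 and Nog, with a median of -0.06. Gdf3, a Nodal-related ligand, was also higher in KD2 (-1.42). The 3 higher in KD1 were Fst, Nog, a BMP antagonist, and Bmp2, a BMP ligand; Bmp2 read 10.44 and 10.57 in KD1, 8.93 and 6.58 in KD2, and 8.10 and 7.93 in scrambled cells.

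FGF signalling genes were called in both directions, and receptors, ligands and feedback genes each had members on either side. Of 29 genes, 7 were called each way, with a median of -0.29; without RA KD1 replicate 2 the counts were 4 higher in KD1 and 0 higher in KD2. Among the receptors, Fgfr4 read 9.66 and 9.47 in KD1 and 7.80 and 7.75 in KD2, a difference of 1.76 (adjusted p = 0.00277), while Fgfr1 read 10.69 and 10.39 in KD1 and 11.51 and 11.09 in KD2, a difference of -0.97 (adjusted p = 0.0112). Klb and the ligand Fgf10 (1.57) were higher in KD1, and the ligand Fgf4 was higher in KD2. The transcriptional target Etv5 differed by -1.63 and the phosphatase Dusp6, which shuts ERK off, by -0.90. Spry2, a feedback inhibitor, went the other way at 1.45. As labelled, 5 were called higher in KD1, Klb, Fgfr4 and Fgf10 among them, and 2 higher in KD2; Fgfr1, Fgf4, Etv5, Dusp6 and Spry2 were not called.

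Further genes higher in KD2 came from no single list. Ppbp, a platelet chemokine, read 7.21 and 6.97 in KD1 and 9.36 and 7.52 in KD2, and Serpinb9e, a serpin with close copies beside it in the mouse genome whose signals the array may not separate, 7.94 and 7.50 against 9.77 and 6.87. These differed by -2.27 and -2.05 with KD2 replicate 1 alone, and neither was called as labelled. Usp26, an X-linked deubiquitinase, differed by -1.83. As labelled, the leading genes higher in KD2 after Lefty1 and Fndc3c1 were Cyp2b23 (a cytochrome P450), Cox7a1 (a subunit of cytochrome oxidase), Aqp3 (a water and glycerol channel), Pim1 (a serine/threonine kinase), Ramp3 (a receptor partner protein) and Cers4 (a ceramide synthase), with differences of -1.33 to -2.02. Aqp3 read 8.66 and 8.38 in KD1 and 9.85 and 10.11 in KD2, so that the KD2 arrays were close to each other. With the replicate number as a block, Lefty1, Cox7a1, Aqp3, Pim1, Ramp3 and Cers4 were no longer called as labelled, nor were Nostrin and Sox7 on the KD1 side. Of the 32 genes called higher in KD2 as labelled, replicate 2 lay farther from KD1 than replicate 1 in 25, and of the 236 higher in KD1 in 171.

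Of 29 genes of retinoic acid response and metabolism, limma called 0 higher in KD1 and 2 higher in KD2, with a median of -0.22. At an unadjusted p below 0.05, 3 were higher in KD1 and 8 higher in KD2, against 3161 of all 19920 genes in either direction. As labelled none was called (1 and 2 at an unadjusted p below 0.05) and the median was 0.45. Crabp1, which binds retinoic acid in the cytoplasm, read 10.74 and 9.98 in KD1 and 11.99 and 11.81 in KD2, a difference of -1.63 (adjusted p = 0.0299). Tgm2, a transglutaminase that retinoic acid induces, differed by -1.28 (adjusted p = 0.0202). Cyp26a1, the enzyme that degrades retinoic acid, read 12.43 and 12.49 in KD1 against 11.58 and 6.83 in KD2 replicates 1 and 2, and was not called (0.88, adjusted p = 0.074).

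Of 37 Hox genes measured, 7 were called higher in KD2 and 0 higher in KD1, with a median of -0.33. Hoxb1, the anterior Hox gene with a known retinoic acid response element, read 9.15 and 9.20 in KD1, 10.40 and 7.53 in KD2 replicates 1 and 2, and 9.42 and 9.46 in scrambled RA cells, a difference of -1.23 (SE 0.14; adjusted p = 0.00225). Hoxc5, Hoxc6 and Hoxb5 differed by -1.50, -1.19 and -1.18. The direction of this list turned with the grouping: as labelled its median was 0.20 with no member called by limma (1 higher in KD1 at an unadjusted p below 0.05). The array labelled RA KD2 replicate 2 read Hoxb1 near the ESC KD1 arrays (7.50 and 7.45). Without RA KD1 replicate 2 only 1 Hox gene was called higher in KD2, and without RA KD1 replicate 1 it was 5.

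Among other lineage lists, the fibroblast matrix, mesoderm and trophoblast lists held a larger share of called genes than all genes did. Calls went both ways in each of them, mostly toward KD2 except in the mesoderm list. Fibroblast matrix genes had 6 of 33 called higher in KD2 and 1 higher in KD1, among them Tnc (tenascin C, -1.30), Lox (a collagen crosslinker, -1.11), Postn (periostin, -0.97) and Col1a1 (a chain of type I collagen, -0.91). The other chain of type I collagen, Col1a2, did not pass the test (-0.15, adjusted p = 0.765). Without RA KD1 replicate 2, limma called none of the fibroblast matrix genes (2 higher in KD1 and 6 higher in KD2 at an unadjusted p below 0.05). Mesoderm genes had 3 called higher in KD1 and 2 higher in KD2 of 32. Pdgfra, a receptor also of primitive endoderm, read 11.81 and 11.94 in KD1 and 10.18 and 7.56 in KD2 (1.69), while Wt1, a factor of mesothelium and kidney, and Prrx1, a factor of limb and connective tissue, were higher in KD2 (-1.65 and -1.61). Trophoblast genes had 3 of 23 higher in KD2 (Esx1, Tpbpa and Dlx3) and 1 higher in KD1 (Tead4, 0.86). Among neural genes Stmn2 alone was called, a share no larger than that of all genes over both directions. As labelled, limma called none of the fibroblast matrix, mesoderm, trophoblast and neural genes; at an unadjusted p below 0.05, 2, 4, 1 and 0 of them were higher in KD1 and 1, 1, 3 and 3 higher in KD2. The fibroblast markers averaged 8.51 and 8.24 in KD1 and 8.75 and 7.62 in KD2, the neuronal markers 7.77, 7.62, 8.24 and 8.46, and the trophoblast markers 9.92, 9.98, 9.99 and 9.53 in the same order; their part in these results was not tested. Medians of the mesoderm, smooth muscle, mesenchymal, imprinted and retinoic acid lists, like that of Hox, were below 0 with KD2 replicate 1 alone (-0.17 to -0.23) and above 0 as labelled (0.14 to 0.52).

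Genes listed for endothelium and blood had 6 of 27 called higher in KD1 and 0 higher in KD2; as labelled 2 were, Flt1 among them, and Tek and Laptm5 were not. Flt1, a VEGF receptor, read 10.85 and 10.91 in KD1 and 9.17 and 8.28 in KD2, a difference of 1.70, and Tek, the angiopoietin receptor, differed by 1.43. Laptm5, a lysosomal protein of blood cells, read 10.58 and 10.57 in KD1, 9.56 and 11.05 in KD2 and 8.0 and 7.75 in scrambled cells. The 6 defining endothelial and blood markers averaged 6.86 and 6.84 in KD1 and 6.85 and 7.15 in KD2, below the median of all values, with Tie1 and Hbb-bh1 among those below it.

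Genes of growth and the cell cycle gave no call. None of 30 mitosis and G2/M genes, 32 DNA replication and S phase genes, 30 ribosome biogenesis and Myc target genes and 27 genes of amino acid synthesis and the ATF4 response was called by limma in either direction, with medians of -0.16, -0.23, -0.13 and 0.00. At an unadjusted p below 0.05, 1, 0, 2 and 3 of them were higher in KD1 and 10, 6, 0 and 5 higher in KD2. The most changed of the first pair of lists were Kif2c, a mitotic kinesin (-0.45, adjusted p = 0.148), and Pold1, a DNA polymerase subunit (-0.41, adjusted p = 0.138). Among SET partners and histone chaperones 0 of 28 were called (1 at an unadjusted p below 0.05). Among PP2A subunits and inhibitors 1 of 27 was called, Tiprl, a regulator of PP2A-type phosphatases (0.55, adjusted p = 0.0395). Tiprl lay in a stretch of neighbouring chromosome 1 genes with a median difference of 0.49 in RA and 0.28 in ESC. Tiprl itself differed by 0.36 in ESC. Outside chromosomes 1 and 14, 0 of 24 PP2A genes were called. The part of this stretch in the Tiprl call was not tested. Polycomb genes had 1 of 28, Rbbp7, a histone-binding subunit (0.31, adjusted p = 0.047). Over all genes, 3.72% were called in either direction. As labelled, limma called no gene of these 7 lists; the unadjusted counts higher in KD1 were 0, 0, 0, 2, 1, 2 and 3, and those higher in KD2 were 12, 8, 1, 6, 3, 1 and 4, in the order given. A p-value that misses the threshold does not show that the lines were alike in these genes.

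Single genes stood out in the hypoxia, cholesterol, imprinted, p53 and interferon lists. Epas1, a hypoxia-inducible factor, read 12.49 and 12.45 in KD1 and 10.29 and 10.43 in KD2, a difference of 2.18 (adjusted p = 0.00492). The other called hypoxia genes were P4ha1 and P4ha2, making 3 of 30; the list's median was 0.12, and -0.16 as labelled. Insig1, a brake on cholesterol synthesis, was 1.34 higher in KD1 and Fdps, a cholesterol synthesis enzyme, 0.51 lower in KD1, the only called genes of 21. Grb10, an imprinted adaptor of insulin signalling, read 7.78 and 7.56 in KD1 and 9.01 and 8.10 in KD2, but 11.52 and 11.59 in scrambled RA cells, so that both lines lay below the control and KD1 farther. Plk3, a stress-response kinase listed as a p53 target, was higher in KD2 (-1.28), and called as labelled too. Oasl2 and Ifi35, interferon-induced genes, were higher in KD2 (-1.33 and -0.85) and Xaf1 higher in KD1 (0.83). Ifitm1, of the same list, differed by -0.61. Among imprinted genes Phlda2 differed by -0.82 and Dcn by 0.75. Of the genes named in this paragraph, Epas1, Insig1 and Plk3 were called as labelled. P4ha1, P4ha2, Fdps, Grb10, Oasl2, Ifi35, Xaf1, Ifitm1, Phlda2 and Dcn were not.

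The remaining lists held between 0 and 5 called genes each. Wnt targets and antagonists had 4 of 30 higher in KD2, with Sfrp2, a secreted Wnt antagonist, at -0.92, and 1 higher in KD1, Dkk1, another antagonist, at 1.11. Primed pluripotency genes had 3 of 19 higher in KD2 (Nodal, Etv5 and Lef1). Epithelial genes had 1 each way of 31: Esrp1, a splicing regulator of epithelia, at 0.90 and Cdh1, E-cadherin, at -0.48. Smooth muscle genes had Des, desmin, at -1.61 and Csrp2, a LIM protein, at 0.75, of 25. Mesenchymal genes had 2 each way of 26, including Snai1, a repressor of E-cadherin, at 0.89. Among germline genes Slc25a31 alone was called, a testis ADP/ATP carrier, at 1.18. That share was no larger than the share of all genes called over both directions. None of 8 Y-linked genes was called (1 at an unadjusted p below 0.05). As labelled, Sfrp2 and Lef1 were called, and the other genes named for these lists were not.

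Beside the scrambled cells, KD1 was the line that stood farther away for most of the genes higher in KD1. Over the 479, the median difference from scrambled RA cells was 1.01 for KD1 and 0.03 for KD2 replicate 1, and KD1 lay farther from scrambled cells in 433. Over the 262 higher in KD2, the medians were -0.65 for KD1 and 0.32 for KD2 replicate 1, and KD1 lay farther in 163. The median of the parietal endoderm list was 1.38 for KD1 and 0.27 for KD2 replicate 1. That of naive pluripotency was -0.50 and 0.59, so there KD2 replicate 1 lay slightly farther from scrambled cells. Both lines were compared with the same scrambled arrays, so these pairs of values are given side by side without a test.

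The same lines were then compared in the stem cell state, to see which differences were already there. The ESC means came from other arrays than the RA means. Both comparisons came from a single fit over the same 10 arrays and shared its estimate of the spread. Calls in the 2 states are therefore not independent. In ESC, KD1 against KD2 replicate 1 gave 437 called genes (2.19%), 105 higher in KD1 (0.527%) and 332 higher in KD2 (1.67%); with every array shifted to one median the split was 144 and 274. Without ESC KD1 replicate 2 the count was 124, and without ESC KD1 replicate 1 it was 281. Of the 479 genes higher in KD1 after retinoic acid, 252 had the same sign in ESC and 45 were called the same way, while 27 were called the other way. Of the 262 higher in KD2, 182 had the same sign, 27 were called the same way and 1 the other way. The median ESC difference was 0.02 over the former and -0.18 over the latter. Over all 19920 genes, 10434 lay above 0 in ESC, close to the share of the 479 that did. The share of the 262 that lay below 0 was larger than that of all genes. On the line from scrambled ESC (0) to scrambled RA (1), ESC KD2 replicate 1 lay at 0.133 and the ESC KD1 arrays at 0.017 and 0.025. The part of this offset in the ESC differences was not tested.

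The endoderm genes were among those whose difference depended on the state. The difference between the RA and ESC comparisons was tested directly and called for 335 genes (1.68%), 288 toward KD1 in RA (1.45%) and 47 toward KD2 (0.236%). This count fell to 77 without RA KD1 replicate 2, 111 without RA KD1 replicate 1, 195 without ESC KD1 replicate 2 and 201 without ESC KD1 replicate 1. Cubn was lower in KD1 than in KD2 in ESC (-1.43, adjusted p = 0.00601; 7.12 and 6.98 against 8.48) and higher after retinoic acid, a change of 3.25 (adjusted p = 0.000717). Glipr1, a secreted cysteine-rich protein, and Chst15, a chondroitin sulfate sulfotransferase, turned in the same way, from -1.26 and -1.49 in ESC to 2.49 and 1.81 in RA. Flt1 turned from -1.16 to 1.70. The ESC side of these turns rests on ESC KD2 replicate 1, which lay farther toward RA than the ESC KD1 arrays. In the parietal endoderm list 16 of 28 genes were called for this change, all toward KD1, and in ESC the list had 4 genes called higher in KD2 and 1 higher in KD1, with a median of -0.35. Tgfbi, a TGF-beta-induced matrix protein, turned the opposite way, from 1.74 in ESC (adjusted p = 0.011) to -1.17 in RA.

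Some differences were alike in both states. Lef1, a Wnt effector, was lower in KD1 by -1.22 in ESC and -1.12 in RA, with 7.75 and 7.64 in RA KD1 and 8.82 and 8.46 in RA KD2. Fndc3c1 differed by -2.12 and -1.96, Oasl2 by -1.43 and -1.33, and Lox by -1.67 and -1.11. For Lef1, Fndc3c1 and Oasl2 the change between states was within 0.16 log2 units and was not called.

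**Figure D4:**
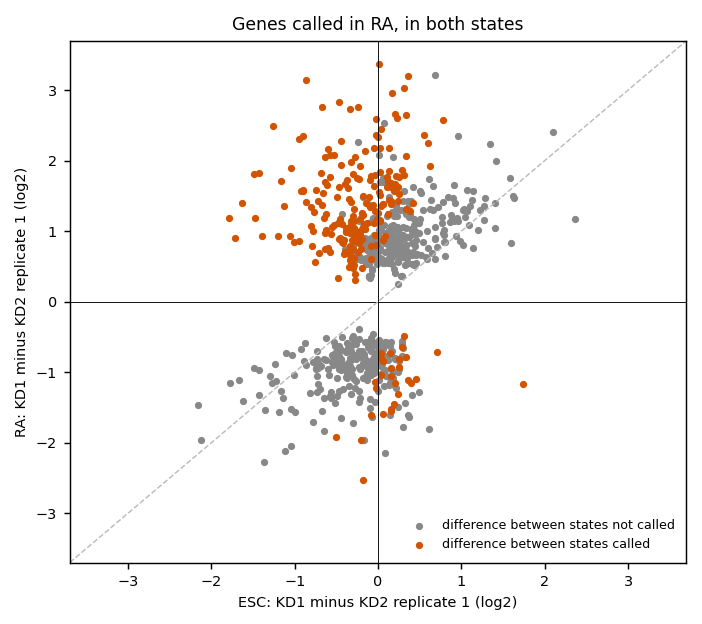
Log2 difference between KD1 and KD2 replicate 1 in ESC (horizontal) and in RA (vertical) for the 741 genes called in RA; orange marks genes whose difference between the states was called, and the dashed line marks equal differences. Most orange points lie in the upper part, at RA differences above 0. The genes were chosen by their RA difference, which is part of the difference between the states. The choice therefore favoured a difference between states of the same sign as in RA.

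Part of the shared difference followed chromosome position (chosen after the values were seen). Over genes at or above the median signal, the median difference was 0.27 in RA and 0.19 in ESC on chromosome 1, and between -0.16 and 0.03 in RA on the other autosomes and X. In order along chromosome 1, 26 of 33 blocks of 20 genes had a median of at least 0.1 in both states. On chromosome 14, the blocks from Esd to Dgkh and from Vwa8 to Commd6 had medians of 1.01 and 1.14 in RA and 0.97 and 0.91 in ESC, with 16 of 20 genes called higher in KD1 in each, while the last block, from Dnajc3 to Tmtc4, had -0.58 and -0.53. In those 3 blocks KD1 minus scrambled was 1.15, 1.33 and -0.57, and KD2 minus scrambled 0.01, -0.01 and 0.00.

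Gata4 and Sox7 lay in a chromosome 14 block with a median of 0.13 in RA, outside the stretches given above. Sox17 lay in the first block of chromosome 1, with -0.01. Lamc1, which also differed by 0.42 in ESC, was not placed in a block. Nor were the other endoderm genes that were named only to complete a list. Ihh lay in a chromosome 1 block with a median of 0.27, and Tbc1d4 in the chromosome 14 block with 1.14. Outside chromosomes 1 and 14, 356 genes were called higher in KD1 and 240 higher in KD2 among 18092. There the parietal endoderm list had 15 of 24 higher in KD1 and the endoderm transcription factors 5 of 14. The part of these chromosome stretches in the other results was not tested.

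**Figure D5:**
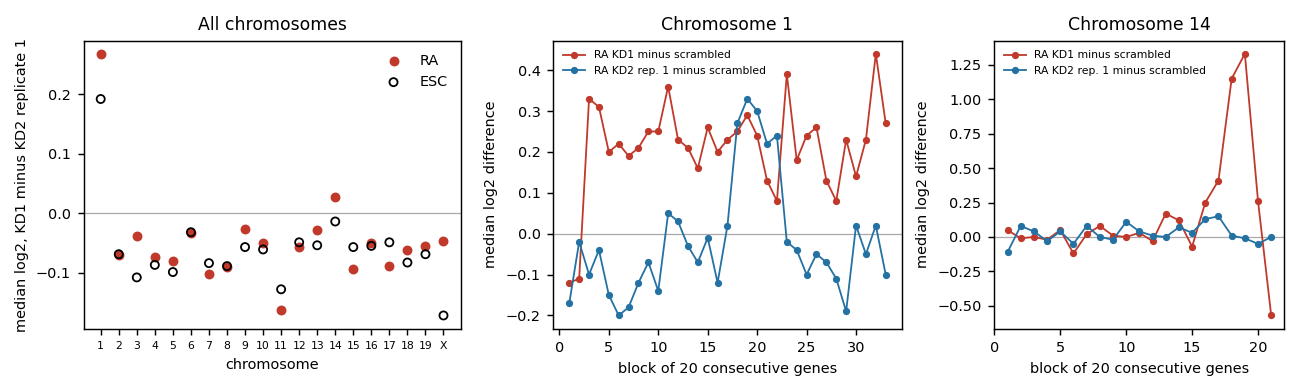
Left, median log2 difference between KD1 and KD2 replicate 1 for genes of each chromosome in RA (filled) and ESC (open). Middle and right, median log2 difference from scrambled RA cells of KD1 (red) and KD2 replicate 1 (blue) in consecutive blocks of 20 genes; on chromosome 14 KD1 reaches 1.15 and 1.33 in adjacent blocks where KD2 stays at 0.01 and -0.01.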

How the data were processed

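RNA from 12 cell samples was hybridised to 1-colour Affymetrix gene arrays, 1 array per sample. The authors deposited log2 values for 35556 probe sets, computed with RMA; the tool comes from the submitters' notes on processing, which give no version. RMA corrects background, normalises arrays to each other and summarises each probe set. No genome build for the probe sets is given in the sources used here. The platform annotation lists 23410 of the probe sets: 21789 with 1 gene symbol and 1621 with several, which name no gene. The brightest probe set with 1 symbol stood for a gene, giving 19920 genes, all with a current RefSeq name; 1015 had more than 1 probe set. Order along chromosomes came from the RefSeq table.

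Limma 3.58.1 in R 4.3.3 fitted the group means with an intensity trend, over all 12 arrays as labelled (6 residual degrees of freedom) or over 10 arrays with KD2 replicate 1 alone (4 residual degrees of freedom). Benjamini-Hochberg adjustment ran over the 19920 genes, or over the 23410 annotated probe sets for Set, and the threshold was an adjusted p-value of 0.05. The method was tested on simulated data. The deposited values carry no read depth; the number of arrays limits the precision. Array medians lay between 7.17 and 7.24.

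Named genes were Set; the called genes with the largest change each way (8 as labelled, 12 with KD2 replicate 1 alone, 5 for the difference between states), without predicted genes, dim genes and genes whose arrays overlapped; and up to 4 called members of each of 32 lists, or the most changed where none was called. Other list members named here complete a list's account. The comparison, the members and the lists were chosen with earlier results of these data known. The labels name no batch or culture that equal replicate numbers share. Figures were drawn with matplotlib 3.10.9.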

Additional observations from a re-analysis of the deposited data

Results flagged for a closer look

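These named genes differed between RA and ESC in how far KD1 lay from KD2, by limma's test of that difference itself (adjusted p below 0.05, KD2 replicate 1 alone). Each value is the RA difference minus the ESC difference, KD1 minus KD2, in log2 units. The genes were named for their RA difference or for this difference itself, so the list is no separate support for either. Toward KD1 after retinoic acid, the values ran highest for Slc6a15 (4.01), Glipr1 (3.74), Klb (3.44), Ptk6 (3.37), Chst15 (3.3), Cemip (3.3), Fst (3.25), Cubn (3.25), Nostrin (3.07), Zim1 (2.99). A middle range held Flt1 (2.86), Prss35 (2.84), Tbc1d4 (2.79), Isx (2.72), Gata4 (2.71), Pth1r (2.69), Foxq1 (2.62), Esrp1 (2.61), Slc39a8 (2.49), Aqp8 (2.46), Fgf10 (2.46), Thbd (2.41), Pdgfra (2.33), Spock1 (2.30). Smaller values were those of P4ha2 (2.27), Epas1 (2.17), Sox17 (1.82), Sox7 (1.80), Fgfr4 (1.65), Ihh (1.59), Insig1 (1.43), Dkk1 (1.43), Dcn (1.36), Snai1 (1.36), Sparc (0.66), Rbbp7 (0.59). Toward KD2 they were Tgfbi (-2.91), Lefty1 (-2.35), Stmn2 (-1.76), Wfikkn1 (-1.72), Chrna3 (-1.64), Prrx1 (-1.53), Nodal (-1.41), Hoxb1 (-1.20). Of the genes toward KD1, Cubn, Glipr1, Chst15, Flt1, Slc39a8, Fst and Esrp1 were also called higher in KD2 in ESC, and Tgfbi, toward KD2, was called higher in KD1 in ESC. Wfikkn1 and Chrna3 did not hold with all 12 arrays as labelled. All the ESC differences used here rest on ESC KD2 replicate 1, which lay farther toward RA than the ESC KD1 arrays.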

How the results depend on the processing

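Leaving out each array gave 30 to 1253 called genes as labelled, 193 to 322 with KD2 replicate 1 alone, 124 to 281 in ESC and 77 to 201 for the difference between states. KD2 replicate 1 could not be left out where it stood alone. With the replicate number as a block within each state, the counts were 305, 1921, 1585 and 1432 in that order; the 741 calls of the RA comparison with KD2 replicate 1 alone were all kept, and 8 of 16 named as-labelled genes lost their call. Whether equal replicate numbers pair the arrays was not settled: a group holds only 2, and the replicate differences of the 6 pairs of groups within a state correlated at 0.141 (RA KD1 and RA KD2) to 0.633. With only the 3 RA groups fitted, 59 genes were called as labelled and 1461 with KD2 replicate 1 alone; with only the RA knockdown groups, 0 (1741 at an unadjusted p below 0.05) and 3030, the latter on 1 residual degree of freedom and split into 1424 higher in KD1 and 1606 higher in KD2, against 479 and 262. With all 12 arrays, 26 genes were called in ESC and 132 for the difference between states, where Wfikkn1 and Chrna3 reversed to 0.65 and 0.26. The cause was not tested. Median shift, quantile normalization, probe-set averaging, the filter on dim genes and no intensity trend kept all 4 counts within 1.5 times. With the median shift, the RA calls with KD2 replicate 1 alone were 592 higher in KD1 and 212 higher in KD2. Over all named genes and alternatives, 981 values kept direction and call, 205 lost the call, 14 gained it and 2 reversed. Without RA KD1 replicate 2, 53 of 91 named genes lost their call with KD2 replicate 1 alone, and without RA KD1 replicate 1, 35. Counts outside chromosomes 1 and 14 were added after the data were seen.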
